A study of Rattus norvegicus with 6 samples.

Results

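The aryl hydrocarbon receptor (AHR) pathway and the Cyp1 genes were followed across the livers of 6 male rats by 8 genes: Ahr, Arnt, Ahrr, Tiparp, Cyp1a1, Cyp1a2, Cyp1b1 and Aldh3a1. They were found by gene symbol in the platform annotation, and every probe set with 1 of these symbols was taken, dim ones included. This gave 10 probe sets of the 31099 on the array. No probe set that lists several genes named one of the 8. All animals were BrlHan:WIST@Jcl(GALAS) males, 4 weeks old when purchased and 7 weeks old when sampled, with 1 week of quarantine in between. The control group (3 rats) ate the powdered diet without chemical. The treated group (3 rats) received the pyrethroid insecticide epsilon-momfluorothrin in the diet over 2 weeks. The titles and the treatment protocol give 3000 ppm, but 5000 ppm stands in the characteristics, sources and descriptions, which leaves the dose unsettled. No source used here describes a positive control for the receptor.

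AHR is a ligand-activated transcription factor that waits in the cytosol with HSP90 and co-chaperones. Bound by planar aromatic compounds such as dioxins or 3-methylcholanthrene, it moves to the nucleus, pairs with ARNT and binds DNA at xenobiotic response elements with the core GCGTG. In rat liver, Cyp1a2 is expressed without an inducer, whereas Cyp1a1, Cyp1b1 and Aldh3a1 are known for low basal levels. Ahrr and Tiparp are themselves targets that dampen the receptor. These 8 genes therefore cover the receptor, its partner, its 2 feedback inhibitors and 4 enzymes that AHR agonists are known to induce.

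RefSeq promoter windows on the GRCr8 build, which run from 250 bases before to 50 bases after a gene's start, were at hand for 6 of the 8 genes. Cyp1a1 and Aldh3a1 had none. The core GCGTG, searched on both strands, was found in 4 of the 6 windows, against 29.7% of the 33469 windows of the same length. The longer form TNGCGTG, which contains the core, was found in those of Ahrr and Cyp1b1, against 4.89% of all windows. The windows of 3 genes are shown because they belong to the bright output gene (Cyp1a2), the member whose groups did not overlap (Tiparp) and the window with the most matches (Ahrr). Matches of the core, on either strand, are in capitals.

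Cyp1a2, chr8:66978100-66978399, minus strand: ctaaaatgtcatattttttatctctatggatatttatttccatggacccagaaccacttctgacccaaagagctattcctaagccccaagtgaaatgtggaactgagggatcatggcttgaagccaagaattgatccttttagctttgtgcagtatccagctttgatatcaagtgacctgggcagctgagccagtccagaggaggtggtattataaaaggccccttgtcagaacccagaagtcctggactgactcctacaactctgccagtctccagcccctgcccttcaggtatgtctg

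Tiparp, chr2:152063519-152063818, plus strand: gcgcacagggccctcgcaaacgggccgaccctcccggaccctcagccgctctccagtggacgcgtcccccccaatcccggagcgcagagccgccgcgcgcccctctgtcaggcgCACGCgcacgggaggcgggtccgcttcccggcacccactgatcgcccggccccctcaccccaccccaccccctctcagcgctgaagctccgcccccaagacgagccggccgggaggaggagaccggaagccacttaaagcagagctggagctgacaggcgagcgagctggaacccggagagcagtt

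Ahrr, chr1:30821969-30822268, plus strand: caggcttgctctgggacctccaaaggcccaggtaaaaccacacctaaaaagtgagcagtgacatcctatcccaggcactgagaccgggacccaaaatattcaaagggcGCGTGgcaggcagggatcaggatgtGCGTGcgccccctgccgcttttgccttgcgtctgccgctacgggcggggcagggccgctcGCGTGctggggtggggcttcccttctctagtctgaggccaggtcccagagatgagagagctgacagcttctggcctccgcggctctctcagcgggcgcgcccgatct

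The Ahrr window holds 3 matches, which begin 142, 117 and 57 bases before the start. Only 3.59% of all windows hold 3 or more. The Tiparp window holds 1 match, on the opposite strand, 136 bases before the start. No match lies in the Cyp1a2 window, nor in that of Ahr, whose base composition is 74.7% G and C. Cyp1b1 has 2 matches and Arnt has 1. G and C make up 46.3% of the Cyp1a2 window, 72.7% of the Tiparp window and 63.3% of the Ahrr window, against a median of 51.7% over all windows. The Arnt and Cyp1b1 windows hold 57.3% and 60.7%, so every window with a match lies above that median. The shares over all windows were not matched for G and C, and an excess of matches was not tested. A match is only a string of letters in this window. Sequence outside the windows was not searched, so a window without a match does not mean a gene without such a site. No binding was measured here.

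The array signals were scaled to an equal trimmed mean, about 100 on every array. Array medians ran from 27.0 to 29.4 in control and from 23.1 to 26.5 in treated livers. For Gapdh, the ratio of 3' over 5' control signals, which reflects RNA quality, was 1.23 to 1.28 in both groups. The same ratio for actin was 2.24 to 2.70 in control and 2.40 to 3.12 in treated livers, and treated replicate 3 had the highest. Of 10 hepatocyte marker genes 9 had a probe set of their own, and all 9 were bright enough to test. Their summed signal was 54352 to 61794 in control and 48936 to 54900 in treated livers. No gene was called among the markers of stellate, Kupffer, endothelial and bile duct cells, lymphocytes and neutrophils, and blood cells, of which 2 to 11 genes per list were tested. Among them the bile duct marker Epcam had signals of 67.1 to 95.1 in control and of 107 to 138 in treated livers, and the endothelial marker Eng 195 to 245 and 164 to 168 (limma adjusted p = 0.220 and 0.222). Neither gene's groups overlapped. In the endothelial list 1 gene was higher and 1 lower at an unadjusted p under 0.05 in limma. Lyve1, the higher one, had 599 to 846 in control and 893 to 1012 in treated livers (limma adjusted p = 0.429), also without overlap. Prom1, the other bile duct marker tested, had a log2 difference, treated minus control, of 0.09 ± 0.24 (SE, limma adjusted p = 0.906), and its groups overlapped. Among 8 Kupffer markers tested, 2 were above 0 and 6 below. Only Clec4f had an unadjusted p under 0.05 in limma. It differed by -0.33 ± 0.13 (SE, limma adjusted p = 0.419), and its groups overlapped. Of the 15778 kept probe sets, 0.171% passed an adjusted p of 0.05 in limma, a linear model that shares variance across probe sets. Kept probe sets are those brighter than the array median on 3 or more of the 6 arrays. A probe set is called dim in a group where it exceeded the array median on none of the 3 arrays.

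None of the 10 probe sets passed the adjusted threshold. Of the 5 that were kept (1 of Ahr, 1 of Arnt, 2 of Tiparp and 1 of Cyp1a2), 1 had an unadjusted p under 0.05 in limma, a Tiparp probe set, against 11.6% of all kept probe sets. The same probe set was the only 1 of the 5 kept whose groups did not overlap, against 17.8% of all kept probe sets. The other 5, of Ahr, Ahrr, Cyp1a1, Cyp1b1 and Aldh3a1, did not pass the filter on low signals, and each overlapped between groups. Their tests come from a limma fit of all 31042 probe sets that are not array controls, of which 0.0677% passed. A filter of this kind can favour probe sets that are bright in 1 group, so the kept members are not a sample of all 10.

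Cyp1a2, the constitutive hepatic Cyp1 enzyme that metabolises caffeine and aromatic amines, had MAS5 signals of 7079, 3807 and 5902 in control replicates 1 to 3, against 4587, 4542 and 4897 in treated replicates 1 to 3. All 6 values lay far above the array medians. The treated values sat close together, within the control range, and above control replicate 2. The log2 difference, treated minus control, was -0.21 ± 0.19 (SE, n = 3 per group, limma adjusted p = 0.694). Its 95% interval of -0.64 to 0.22 corresponds to 0.64 to 1.16 times the control level. The spread lay in the control group, where the SD of log2 signals was 0.46 against 0.06 in the treated group. Without control replicate 2 the difference was -0.47 (limma adjusted p = 0.189), and without control replicate 1 it was -0.02. In both cases it missed the threshold. Hepatocyte markers on the same arrays had a median log2 difference of -0.15, with none called and 4 of 9 lower at an unadjusted p under 0.05 in limma; their part in the Cyp1a2 values was not tested. In RNA from whole liver, fewer cells of a type and less RNA per cell cannot be told apart.

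Cyp1a1, the classic inducible AHR target, gave signals of 3.94, 2.81 and 1.09 in the control animals, against 3.25, 3.68 and 30.5 in the treated animals. Control livers were dim. In the treated group only replicate 3 exceeded its array median, which was 23.1, and the other 2 treated animals lay inside the control range. The limma adjusted p was 0.646 in the fit without a filter. The mean treated signal, 12.5, lay under every array median, so no fold is given. The fitted log2 difference, which is no measured fold, was 1.64 with all arrays, 0.59 without treated replicate 3, 2.21 without treated replicate 1 and 0.49 with a pseudocount of 16. Treated replicate 3 also had the lowest array median and the highest actin ratio of the 6 arrays, whose part in its Cyp1a1 signal was not tested. Its Cyp1a2 signal of 4897 was the highest of the treated group and lay within the control range. Cyp1a2 and Cyp1a1 are next to each other on chromosome 8 in the RefSeq gene table.

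Cyp1b1, an extrahepatic member of the family that metabolises oestradiol and polycyclic hydrocarbons, had signals of 20.6, 31.1 and 22.0 in the control animals, against 21.3, 24.7 and 14.2 in the treated animals. Only control replicate 2 exceeded its array median. The groups overlapped (limma adjusted p = 0.809 in the fit without a filter). Among stellate cell and fibroblast markers, which stand for a cell type known to express Cyp1b1, 11 of 12 were tested and none was called. Of the 11, 4 were above 0 and 7 below. The summed signal of all 12 was 2616 to 3286 in control and 2760 to 2999 in treated livers. Col3a1 made up much of it, with 1327 to 1728 in control and 1487 to 1654 in treated livers.

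Aldh3a1, an aldehyde dehydrogenase that AHR agonists induce in rat liver, was dim on all 6 arrays. Its signals were 0.588, 5.34 and 13.7 in the control animals, against 3.57, 8.06 and 1.91 in the treated animals (limma adjusted p = 0.983 in the fit without a filter). Values this far under the array median have no reliable order.

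**Figure D1:**
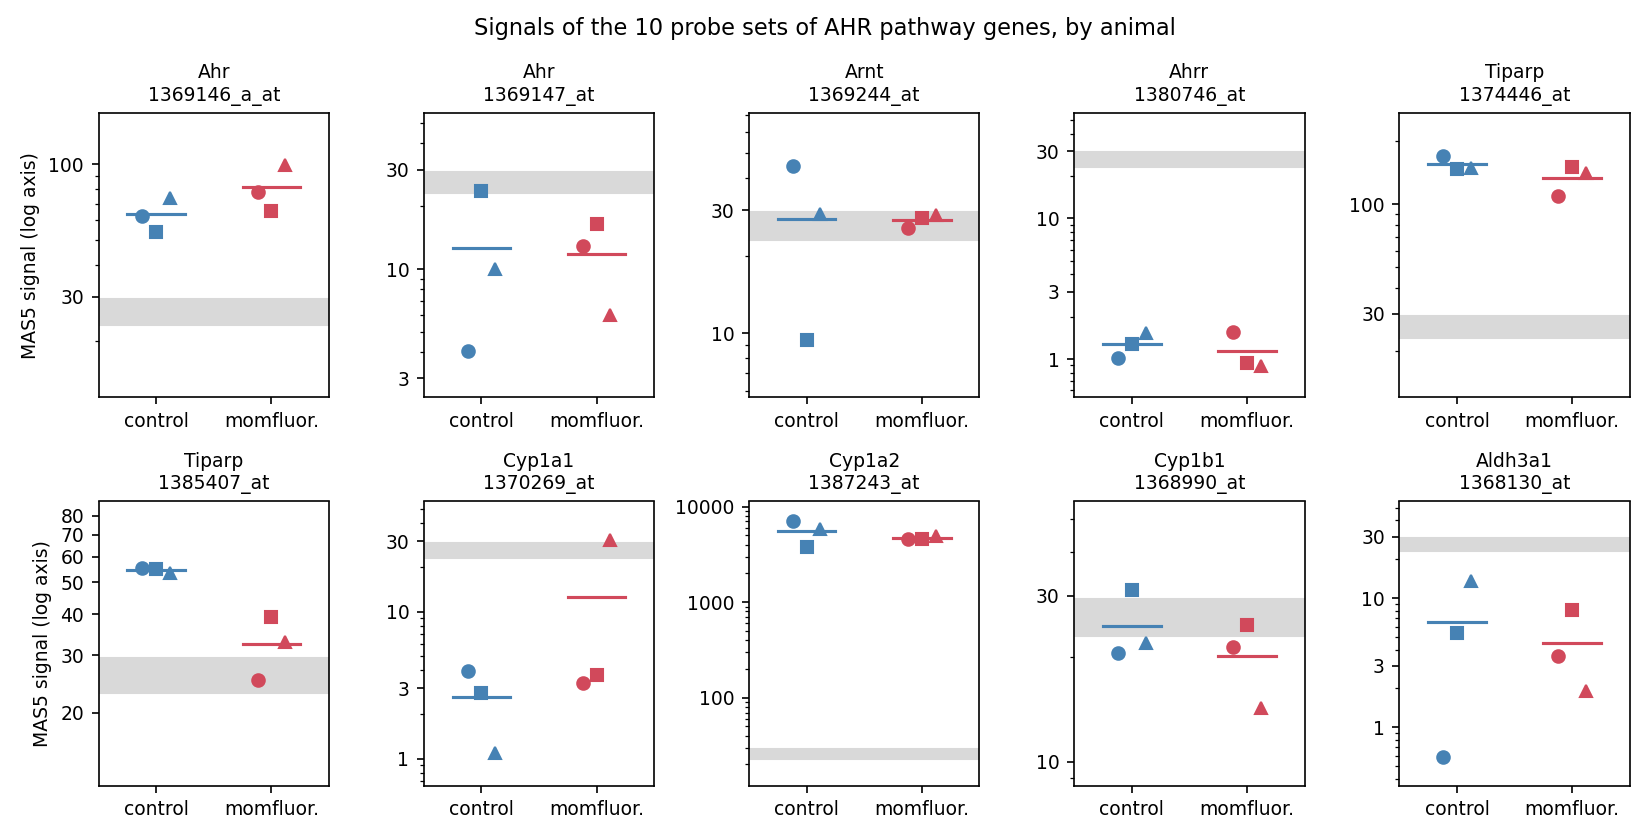
MAS5 signal (log axis, a separate scale in each panel) of the 10 probe sets in the 3 control (blue) and 3 treated (red) rats; circles, squares and triangles are replicates 1, 2 and 3, horizontal lines are group means and the grey band spans the 6 array medians. Only Tiparp 1385407_at has groups that do not overlap, and Cyp1a1 lies under the band in every animal but treated replicate 3, whose signal was 30.5.

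The receptor itself was measured by 2 probe sets. Ahr 1369146_a_at had signals of 62.3, 54.2 and 73.6 in the control animals, against 78.0, 65.3 and 99.8 in the treated animals. The groups overlapped, since treated replicate 2 lay below control replicate 3, and treated replicate 3 was the highest of the 6. The log2 difference was 0.34 ± 0.19 (SE, n = 3 per group, limma adjusted p = 0.527), with a 95% interval of -0.09 to 0.78, and it was 0.18 without treated replicate 3. The other probe set, 1369147_at, was dim on all arrays, with signals of 4.06 to 23.7 in control and of 6.04 to 16.4 in treated livers, and its groups overlapped (limma adjusted p = 0.966 in the fit without a filter).

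Arnt, the dimerisation partner of AHR and of the hypoxia-inducible factors, lay near the array median. Signals were 44.5, 9.44 and 28.9 in the control animals, against 25.6, 28.0 and 28.8 in the treated animals. The group means were 27.6 ± 17.6 and 27.5 ± 1.65 (SD, n = 3 each). The log2 difference of 0.25 ± 0.51 (SE, limma adjusted p = 0.876) turned to -0.39 without control replicate 2, the animal with the lowest signal. The residual SD of its log2 signals was 0.82, higher than that of 98.3% of the kept probe sets, so the interval of -0.91 to 1.42 is wide.

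Tiparp, a mono-ADP-ribosyltransferase that is induced by AHR and marks the receptor for degradation, was measured by 2 kept probe sets. Probe set 1385407_at had signals of 55.2, 55.0 and 53.4 in the control animals, against 25.3, 39.4 and 32.9 in the treated animals. Every treated animal lay below every control animal, and treated replicate 1 lay under its array median of 25.9. The log2 difference was -0.77 ± 0.21 (SE, n = 3 per group), 0.59 times the control level, with an unadjusted p of 0.00499 and an adjusted p of 0.233 in limma. It kept its sign in all 13 alternatives run and passed the threshold in none of them, with values from -0.92 to -0.55.

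The brighter Tiparp probe set, 1374446_at, had signals of 171, 147 and 148 in the control animals, against 109, 150 and 141 in the treated animals. Treated replicate 2 lay above 2 of the 3 control animals, so the groups overlapped. The log2 difference was -0.23 ± 0.14 (SE, limma adjusted p = 0.575), with an interval of -0.56 to 0.10, and it was -0.09 without treated replicate 1. Within each animal, the log2 signal of 1385407_at minus that of 1374446_at was -1.63, -1.42 and -1.47 in the control animals, against -2.11, -1.93 and -2.09 in the treated animals. These values were looked at after those of 1385407_at were known and are given with no test. The 95% intervals of the 2 probe sets, -1.24 to -0.30 and -0.56 to 0.10, overlapped. That overlap takes no account of both being measured in the same animals, so it does not show that the 2 agree. Where the 2 Tiparp probe sets lie in the transcript is not given in the sources used here.

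Ahrr, the repressor that competes with AHR for ARNT, was dim on all 6 arrays, with signals of 1.02 to 1.52 in control and of 0.893 to 1.56 in treated livers (limma adjusted p = 0.95 in the fit without a filter). Its measured range gives neither a level nor a direction.

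**Figure D2:**
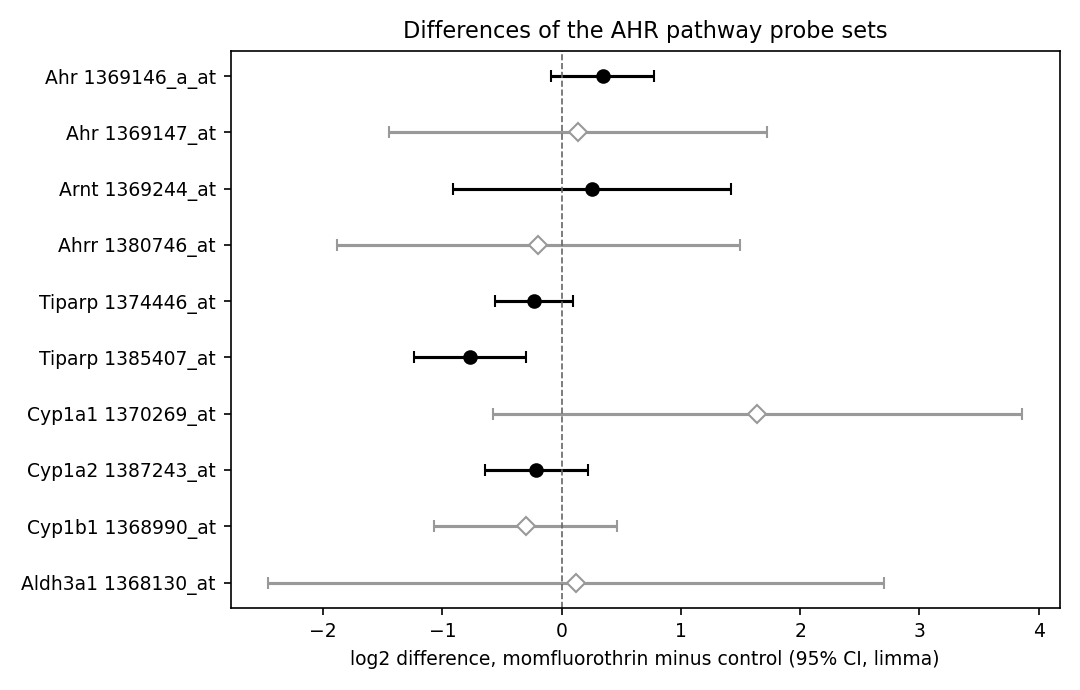
Log2 difference, treated minus control, with its 95% confidence interval from limma, for the 10 probe sets; filled circles are the 5 kept probe sets and open diamonds the 5 from the fit without a filter. The interval of Tiparp 1385407_at, -1.24 to -0.30, is the only 1 of the 10 that does not include 0; the intervals are not adjusted for the number of probe sets.

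The members did not share 1 direction. Of the 4 genes with a kept probe set, each represented by its brightest, the log2 difference was above 0 for 2 (Ahr, Arnt) and below 0 for 2 (Tiparp, Cyp1a2), with a median of 0.02. The sign of Arnt rests on control replicate 2: its group means of 27.6 and 27.5 were nearly equal, and without that animal the difference was -0.39, which leaves Ahr alone above 0. Over all 9200 genes tested the median was -0.01, with 4372 genes higher and 4828 lower. Median centring of each array shifts that overall median by 0.17, and under it the differences were 0.52 for Ahr, -0.06 for Tiparp 1374446_at, -0.60 for Tiparp 1385407_at and -0.04 for Cyp1a2, with no call in any of them.

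The genes whose signals, centred on their own mean over the 6 arrays, were closest to those of Cyp1a2 were Slfn5, Fasn, Zfp709, Acvr1 and Hyls1. Their root mean square differences from Cyp1a2 were 0.09 to 0.10 log2 units, against a median of 0.34 over 9147 named genes. In all 5, as in Cyp1a2, control replicate 2 had the lowest of the 6 signals. For Ahr the closest genes were Zwint, Bola2, Ccdc6, Rad52 and Tcea3, with root mean square differences of 0.07 to 0.09, against a median of 0.33. In all 5, treated replicate 3 had the highest signal and control replicate 2 the lowest, as for Ahr. With 6 arrays and 9147 genes such closeness is a description only.

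**Figure D3:**
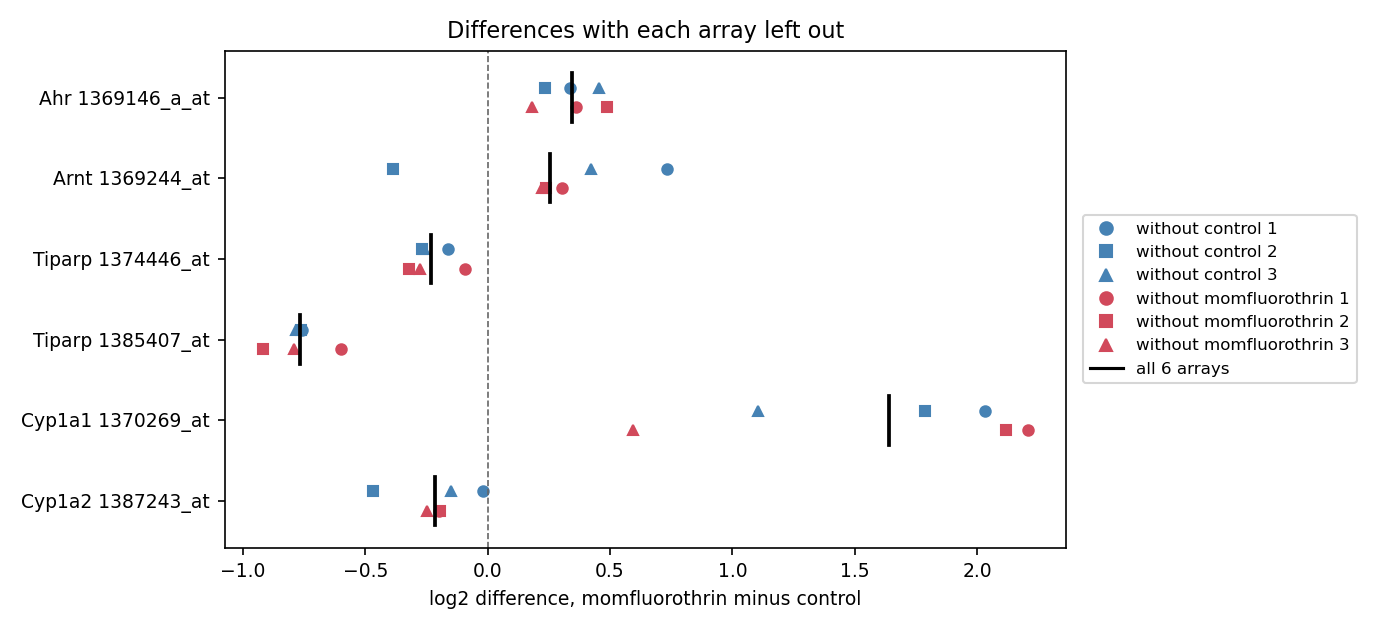
Log2 difference, treated minus control, for 6 probe sets with all 6 arrays (black line) and with each array left out (symbols by animal; blue for a control and red for a treated animal left out). Tiparp 1385407_at stays between -0.92 and -0.60, Arnt changes sign without control replicate 2, and the fitted value of Cyp1a1, no measured fold, falls from 1.64 to 0.59 without treated replicate 3.

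The wider pathway was described by gene lists, each gene through its brightest kept probe set. Over all 9200 genes, 0.217% passed the adjusted threshold, and 12.2% had an unadjusted p under 0.05. Among chaperones and coactivators of AHR, 8 of 13 genes were tested and none was called. The median log2 difference was 0.00, with 4 higher and 4 lower, and 1 had an unadjusted p under 0.05. That was Hsp90ab1, an HSP90 isoform, with signals of 3297, 3592 and 3360 in the control animals, against 2936, 2931 and 3067 in the treated animals, which did not overlap (log2 difference -0.20 ± 0.07 SE, limma adjusted p = 0.340). The acetyltransferase Ep300 differed by 0.15 ± 0.09 (limma adjusted p = 0.578), also without overlap, with every treated animal above every control animal. In this list 2 genes were higher and 1 lower without overlap between groups. Over all 9200 genes, 832 were higher and 849 lower in this way. Probe sets annotated to Hsp90aa1 and a pseudogene gave -0.12 ± 0.10 and -0.00 ± 0.15.

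Of 13 other genes reported as AHR targets, 7 were tested and none was called, with a median of -0.07, 3 higher and 4 lower. An unadjusted p under 0.05 in limma was reached by 1 higher and 2 lower genes. Nfe2l2, which encodes NRF2, had signals of 745, 671 and 757 in the control animals, against 636, 511 and 457 in the treated animals, without overlap (log2 difference -0.45 ± 0.13 SE, limma adjusted p = 0.248). Xdh, xanthine dehydrogenase, differed by 0.47 ± 0.16 (limma adjusted p = 0.327), and its groups overlapped. Nqo1, the quinone reductase that responds to both AHR and NRF2, is named after its values were seen. Its signals were 391, 302 and 273 in the control animals, against 511, 146 and 360 in the treated animals, a scatter with no shared direction (log2 difference -0.09 ± 0.39 SE, limma adjusted p = 0.946).

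Of that list, Gsta2, Ugt1a1 and Ugt1a6 had no probe set of their own and were covered only by probe sets shared with other genes. A probe set annotated to both Gsta5 and Gsta2, alpha glutathione transferases, had signals of 3018, 1654 and 1387 in the control animals, against 4556, 4755 and 4452 in the treated animals. The groups lay well apart, yet the log2 difference of 1.27 ± 0.24 (SE) missed the threshold (limma adjusted p = 0.108). Both probe sets annotated to 8 Ugt1a genes, Ugt1a6 among them, overlapped between groups, with differences of 0.18 ± 0.09 and 0.14 ± 0.10 (limma adjusted p = 0.452 and 0.604).

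The 8 genes for P450 electron supply and heme were all tested. With all 6 arrays and the deposited scaling all 8 differences were above 0, from 0.02 to 0.45, and none was called (median 0.08, 1 gene at an unadjusted p under 0.05). With quantile normalization or array weights, or without control replicate 2 or any treated replicate, 7 of the 8 lay above 0, and without control replicate 3 the number was 5. Cyb5r3, the reductase of cytochrome b5, differed by 0.20 ± 0.07 (SE, limma adjusted p = 0.378), without overlap between 1011 to 1100 in control and 1193 to 1216 in treated livers. Fech, ferrochelatase, differed by 0.16 ± 0.10 (limma adjusted p = 0.585).

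ARNT also serves the hypoxia-inducible factors. In that list 10 of 15 genes were tested, none was called, and the median was -0.04, with 1 higher and 2 lower at an unadjusted p under 0.05. Hif1a had signals of 666, 671 and 674 in the control animals, against 610, 578 and 572 in the treated animals (log2 difference -0.19 ± 0.08 SE, limma adjusted p = 0.409), and the lactate dehydrogenase gene Ldha differed by -0.46 ± 0.12 (limma adjusted p = 0.234). Neither gene's groups overlapped.

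Tryptophan breakdown yields kynurenine, a weak endogenous AHR ligand. Of 9 genes of that route 7 were tested and none was called, with a median of -0.09 and 1 gene in each direction at an unadjusted p under 0.05. Kynu, kynureninase, differed by -0.38 ± 0.14 (SE, limma adjusted p = 0.367) and Afmid, which releases kynurenine, by 0.30 ± 0.13 (limma adjusted p = 0.423). The groups overlapped for Afmid and did not for Kynu. Pericentral genes, which share the zone of the lobule where Cyp1a2 is expressed, had a median of -0.08 over 10 tested genes, with 3 of them lower and 1 higher at an unadjusted p under 0.05, and none called. The smallest p-values were those of Oat, at -0.56 ± 0.11, and Gulo, at -0.43 ± 0.09 (SE, limma adjusted p = 0.136 for both). Every treated animal lay below every control animal for both genes. Of the 10 genes, 3 were above 0 and 7 below. Cyp7a1 and Glul are named after their values were seen. Cyp7a1 had the largest difference, 0.91 ± 0.39 (SE, limma adjusted p = 0.429), and Glul differed by -0.01 ± 0.18 (limma adjusted p = 0.987). The groups of both overlapped. Whether the values of Cyp1a2 moved with the zone was not tested.

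Genes that respond to the receptors CAR and PXR are given to show values on the same arrays. The 13 genes were listed with their results known, so their counts are a description only and are no evidence about the list. Of the 11 tested, 7 were called higher and none lower, with a median log2 difference of 1.06 (0.196% of all genes were called higher). The other 4 were not called. Among them Cyp2c7, Cyp3a23-3a1 and Cyp2c6v1, named after their values were seen, differed by -0.19 ± 0.07, -0.17 ± 0.14 and -0.04 ± 0.06 (SE, limma adjusted p = 0.371, 0.657 and 0.828). Every treated animal lay below every control animal for Cyp2c7, and the groups overlapped for the other two. A probe set shared by Cyp2b1 and Cyp2b2 had signals of 2177 to 3527 in control and of 4420 to 5310 in treated livers (log2 difference 0.85 ± 0.16 SE, limma adjusted p = 0.107). The carboxylesterase gene Ces2c had signals of 243, 306 and 240 in the control animals, against 976, 1008 and 1081 in the treated animals (log2 difference 1.97 ± 0.11 SE, limma adjusted p = 0.000591). Akr7a3, an aldo-keto reductase, and Ugt2b1, a glucuronosyltransferase, rose by 1.94 ± 0.15 and 1.64 ± 0.13 (limma adjusted p = 0.00202 for both). Abcc3, an efflux pump that was dim in control livers, was also called higher (limma adjusted p = 0.000861 for the measured signals). With each control signal replaced by its array median, Abcc3 was 3.94-fold higher, a ratio given without an interval. The difference between this list and the AHR genes was not tested. With treated replicate 2 or treated replicate 3 left out, 3 of the 11 genes were called, and 2 were called by limma without an intensity trend.

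**Figure D4:**
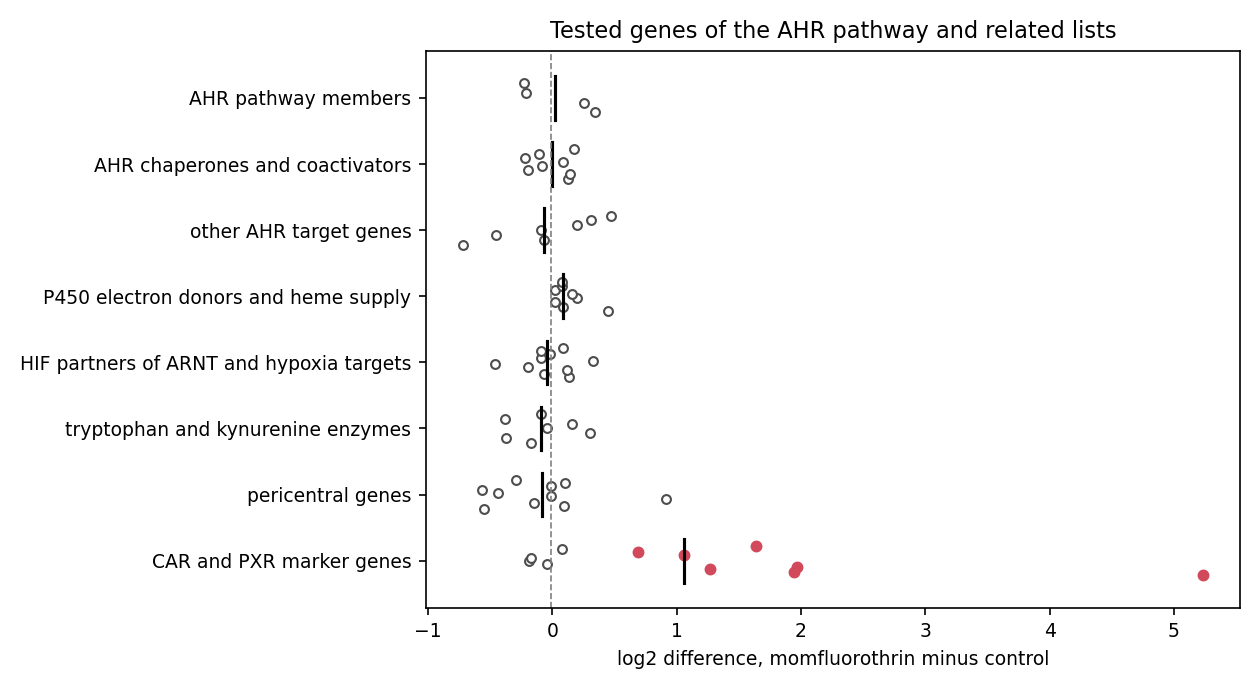
Log2 difference, treated minus control, of each tested gene (points) in the AHR pathway and 7 related lists; filled red points passed the adjusted threshold, black bars are list medians and the dashed line is the median of all 9200 genes. The called genes shown lie in the CAR and PXR list, whose members were chosen with results known; the rightmost, Abcc3, was dim in control livers and its position is no measured fold.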

How the data were processed

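Liver RNA was measured on 1-colour Affymetrix rat arrays, 1 per animal. The authors deposited 1 intensity per probe set, on a linear scale, computed by MAS5 (per the submitters' processing notes, with no version or settings recorded in the labels). The table holds no detection calls. Of 31099 probe sets, 57 array controls were left out. Probe sets were named from the platform annotation (20826 with 1 gene symbol, 436 with several, 9780 with none), of which 20758 matched the GRCr8 gene table by gene identifier. The log2 of each signal, with no pseudocount added, entered a 2-sided limma comparison (version 3.58.1, R 4.3.3; lmFit and trended eBayes), and p-values were adjusted by Benjamini-Hochberg across the 15778 kept probe sets (or all 31042 without the filter) and a threshold of 0.05. The code was run on simulated data with independent normal noise, without shifts shared within an array, and its results are not reported here. The members, gene lists, tests and alternatives were chosen with earlier results of these data known. All probe sets of the 8 genes are named; of each list, the called genes up to 4, or the 2 with the smallest p, and, for Cyp1a2 and Ahr, the 5 genes closest in root mean square difference. Alternatives changed the filter, scaling, pseudocount (16), variance model, probe set rule and a replicate block, and left out each array. The animals are separate replicates per the labels, which give no batch; the 6 arrays, and not a depth, limit precision.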

Additional observations from a re-analysis of the deposited data

How the results depend on the processing

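No probe set of the 8 genes was called under any alternative run, and the stricter filter, at the 70th percentile, kept only Cyp1a2 and Tiparp 1374446_at. The differences of Ahr 1369146_a_at, both Tiparp probe sets and Cyp1a2 kept their sign throughout. Those of Cyp1a1 (0.49 to 2.21) and Cyp1b1 (-0.47 to -0.07) also kept their sign in all 13 alternatives. Their signals lay mostly under the array medians, so these differences have no reliable order. Arnt (0.25) ran from -0.39 without control replicate 2 to 0.73 without control replicate 1. Among dim probe sets, Ahr 1369147_at (0.14) turned to -0.0019 with a pseudocount of 16 and ran from -0.51 to 0.77 with an array left out, and Aldh3a1 (0.12) turned to -0.11 and ran from -1.17 to 1.10 likewise. Both were below 0 without control replicate 1 or treated replicate 2. Ahrr (-0.20) turned to 0.081 with quantile normalization. The cause was not tested. With an array left out, 1 to 3 of the 10 probe sets did not overlap between groups, against 1 with all arrays. Smaller groups fail to overlap more readily for any probe set. The share over all probe sets was not computed with an array left out, so these counts are no result about the 8 genes.

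Over all probe sets 27 were called, 21 higher and 6 lower. Median centring gave 70 (65 higher), eBayes without an intensity trend 3 (3 higher, 0 lower; 974 genes had an unadjusted p under 0.05 in that limma fit), no filter 21 (3 lower), and leaving out 1 array 5 to 27 (3 to 24 higher, 2 to 5 lower). In the related lists 7 genes were called, 2 without an intensity trend and 3 to 7 with an array left out. All of these calls lay in the CAR and PXR list, whose genes were chosen with results known. The other related lists had no call under any alternative run. Over all genes tested, 0.217% were called. Without treated replicate 1, 2 or 3 the calls over all probe sets were 15, 5 and 7. The share of higher calls went from 77.8% to 92.9% with median centring, to 66.7% with a replicate block, and ran from 57.1% (without treated replicate 3) to 88.9% (without control replicate 1) with an array left out. A replicate block gave 15 calls over all probe sets (10 higher) and changed no call of the 8 genes. Deviations from the group means correlated at -0.0997, 0.105 and -0.0648 between control and treated arrays of equal number, for numbers 1, 2 and 3. Between arrays of unequal number the values ran from -0.0677 to 0.145. With 3 arrays per group these values depend on each other, so they are a description only.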
